A study of Homo sapiens with 12 samples.

Results

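The genes described here are the protein-coding genes of human chromosome 19 whose symbol is ZNF followed by a number. They were taken from the rows of a gene count matrix with a mean of at least 1 CPM, a count scaled to a common library total, over the 12 libraries. The symbol and the chromosome picked 223 of the 32269 rows, and 202 of these reached 1 CPM and are the members below, while 21 did not. ZNF541 (1.01 CPM), ZNF575 (1.01 CPM) and ZNF331 (1.08 CPM) lay just inside this limit, and ZNF491 (0.871 CPM), ZNF540 (0.642 CPM) and ZNF681 (0.584 CPM) just outside it. The study sequenced mRNA of 2 human gastric cancer cell lines grown with or without cantharidin sodium, a salt form of cantharidin, a blister beetle toxin that inhibits the protein phosphatase PP2A. The 4 groups were AGS cells treated with cantharidin sodium, untreated AGS cells, MKN1 cells treated with cantharidin sodium and untreated MKN1 cells, with 3 libraries each. AGS is an established line from a gastric adenocarcinoma and MKN1 one from a gastric adenosquamous carcinoma. The labels state neither dose nor duration. The replicates are called biological in the design text. Since each arm is 1 cell line, p-values measure the spread between cultures. For each gene that spread was estimated over the 4 groups of both lines together, except where a line was fitted alone.

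Most zinc finger genes of chromosome 19 encode proteins that pair an amino-terminal KRAB domain with a row of C2H2 zinc fingers. The fingers read DNA, and the KRAB domain binds the corepressor TRIM28 (also called KAP1). TRIM28 brings in the histone methyltransferase SETDB1 and the heterochromatin protein HP1, so that the bound site gains H3K9 trimethylation and is silenced. Many of these proteins hold retrotransposons silent, and the genes lie in large tandem clusters that grew by duplication. A member was counted as a KRAB gene where a KRAB motif was found in its translated coding sequence, which held for 169 members, while 33 had none. The members carried a median of 12 finger motifs each, with the fewest, 1, in ZNF428 and the most, 31, in ZNF91.

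Base composition differs between these classes in the median, while the ranges overlap, at 33.5% to 59.8% GC in KRAB members and 35.9% to 71.1% in the rest. Transcripts of KRAB members had a median GC content of 42.3%, against 61.3% in members without the motif, 60.8% in 781 other protein-coding genes of chromosome 19 and 49.6% in all 13209 protein-coding genes of at least 1 CPM. A finger with the linker that follows it is shown for 1 member of each class, as an example that does not stand for its class. The stretch of ZNF224 (GRCh38, chr19:44106776-44106856, plus strand) has a GC content of 46.9% and 2 CG dinucleotides. The stretch of ZNF628, a member without the motif (GRCh38, chr19:55481305-55481385, plus strand), has 67.9% and 7. Capitals mark the linker codons.
ZNF224: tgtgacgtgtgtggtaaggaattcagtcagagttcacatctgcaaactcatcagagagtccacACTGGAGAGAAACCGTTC
ZNF628: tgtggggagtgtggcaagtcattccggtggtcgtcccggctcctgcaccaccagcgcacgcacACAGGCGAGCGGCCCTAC

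Library totals ran from 28604966 to 51604215 counts, and 3 counts, taken as the limit of what a value near 0 allows, stood for 0.0581 to 0.105 CPM. The members together took 0.322% to 0.44% of the counts of a library. Within a group, libraries differed by more than counting error in every pair. MKN1 untreated library 3 stood apart from the rest of its group, with a chi-square per degree of freedom of 69.7 and 81.0 against its partners. The other 10 pairs had 9.78 to 65.5, and among them the 3 treated MKN1 pairs had 41.6, 54.6 and 65.5, so those libraries also differed widely. Of 12 gastric epithelial markers, 11 in AGS and 9 in MKN1 reached 1 CPM. Of 8 squamous markers, 3 in AGS and 8 in MKN1 did, and of 12 fibroblast, endothelial and blood markers, 2 in AGS and 5 in MKN1. The last list summed to 2.75 to 20.8 CPM in AGS and 70.6 to 177 CPM in MKN1, and its part in the results was not tested. In bulk libraries like these, fewer cells expressing a gene and less RNA per cell cannot be told apart.

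Levels between genes are compared per kilobase of transcript. ZNF146, a protein made almost only of 10 fingers and without a KRAB motif, was the most abundant member at 79.2 CPM per kb, ahead of ZNF302 with 45.9 and ZNF562 with 37.1 CPM per kb. At the other end lay ZNF541 with 0.217 and ZNF331, an imprinted gene, with 0.215 CPM per kb. In CPM, ZNF146 averaged 243 ± 5.54 in treated AGS cells, 206 ± 13.9 in untreated AGS cells, 388 ± 66.9 in treated MKN1 cells and 361 ± 31.9 in untreated MKN1 cells (SD, n = 3 each). Its log2 fold change was 0.23 in AGS (adjusted p = 0.194) and 0.02 in MKN1 (adjusted p = 0.932) in edgeR's quasi-likelihood test. Neither change passed the threshold. The next members by CPM were ZNF507 and ZNF587, with means over the 12 libraries of 87.1 and 81.6 CPM.

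**Figure D1:**
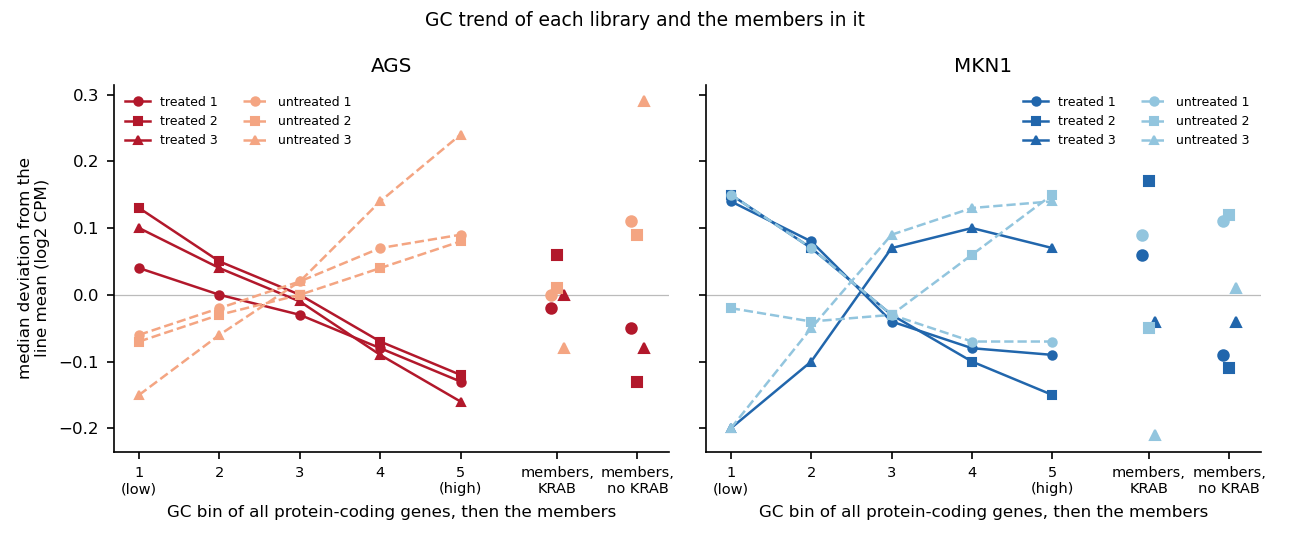
Median deviation of each library from the mean of its line (log2 CPM, vertical axis) for 5 equally filled GC bins of protein-coding genes and for KRAB and other members (horizontal axis), with AGS left and MKN1 right. Solid lines are treated libraries, dashed lines untreated ones, and marker shapes the replicates; the treated AGS libraries fall from low to high GC while the untreated ones rise, and the MKN1 groups are mixed.

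Because KRAB members are poor in GC, the GC trend of the libraries is given before the changes. Its part in each change was not tested. The median deviation of the lowest of 5 equally filled GC bins of protein-coding genes minus that of the highest was 0.17, 0.25 and 0.26 (log2 CPM) in treated AGS libraries, against -0.15, -0.15 and -0.39 in untreated ones. The AGS groups did not overlap in this measure, so in AGS the trend and the treatment cannot be told apart. In MKN1 the measure was 0.23, 0.3 and -0.27 in treated libraries, against 0.22, -0.17 and -0.34 in untreated ones, and the groups overlapped. For the KRAB members the AGS groups overlapped: the median deviation of KRAB members was -0.02, 0.06 and 0.00 in treated AGS libraries, against 0.00, 0.01 and -0.08 in untreated ones. Members without the motif had -0.05, -0.13 and -0.08 in treated AGS libraries, against 0.11, 0.09 and 0.29 in untreated ones. In MKN1 they had -0.09, -0.11 and -0.04 in treated libraries, against 0.11, 0.12 and 0.01 in untreated ones. For these members, whose GC content ran from 35.9% to 71.1%, the groups overlapped in neither line.

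In AGS, cantharidin sodium raised 12 members and lowered 11 of the 202 (edgeR's quasi-likelihood test, Benjamini-Hochberg adjusted p below 0.05), which is 11.4% of the members. Of all 20280 genes tested, 20.8% were called, 9.21% higher and 11.6% lower. The genes that rose most were ZNF441 (1.09), ZNF333 (0.95), ZNF577 (0.94), ZNF599 (0.85) and ZNF841 (0.79), and those that fell most were ZNF114 (-1.42), ZNF546 (-1.15), ZNF66 (-0.95), ZNF419 (-0.89) and ZNF653 (-0.81), as log2 fold changes. The median over the members was -0.01, and it was -0.01 over all genes tested. All 3 treated libraries lay above all 3 untreated ones for 54 members and below them for 49, or 51.0% of the members against 52.4% of all genes tested (26.0% above, 26.4% below). Over the 177 members the numbers were 54 and 45, or 55.9%. The counts depended on single libraries. The number of members called was 12, 8 and 10 without treated AGS library 1, 2 or 3, and 11, 14 and 10 without untreated AGS library 1, 2 or 3. The share of all genes called also fell, to 11.9%, 10.4% and 11.8%, and to 12.1%, 13.6% and 9.85%, in the same order. MKN1 untreated library 3 enters the AGS comparison through the shared estimate of the spread, the scaling and the choice of genes tested. Without this library, 42 members were called in AGS, 18 higher and 24 lower, including all 23 of the full set. Of all genes tested, 26.4% were called (11.9% higher, 14.6% lower).

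ZNF441 is a KRAB gene with 14 finger motifs (chromosome 19, 11767000 to 11784078, plus strand). Its level was 3.63, 3.2 and 2.86 CPM in treated AGS libraries, against 1.55, 1.35 and 1.6 CPM in untreated ones. The treated libraries were all above the untreated ones, and the gene rose by 1.09 on the log2 scale (SE 0.25, adjusted p = 0.00937). ZNF841, with 20 finger motifs, had 66.5, 77.3 and 67.7 CPM in treated AGS libraries, against 42.9, 45.9 and 33.0 CPM in untreated ones. It rose by 0.79 (SE 0.2, adjusted p = 0.0175) on the log2 scale, and the groups did not overlap.

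ZNF224 encodes a KRAB repressor first described at the aldolase A gene. Its level was 72.7, 76.9 and 75.7 CPM in treated AGS libraries, against 47.2, 47.6 and 42.5 CPM in untreated ones (log2 fold change 0.71, SE 0.13, adjusted p = 0.00343). The 2 groups were far apart for their spread. The exons of ZNF224 share 40.5% of their bases with the antisense gene ZNF225-AS1, and 39.8% of its 50-base words occur in another gene. Counts on ZNF225-AS1 were low, 0.214, 0.579 and 0.42 CPM in treated AGS libraries, against 0.504, 0.00 and 0.599 CPM in untreated ones. ZNF160, a KRAB gene reported to repress TLR4, had 70.3, 73.0 and 64.8 CPM in treated AGS libraries, against 46.3, 45.1 and 39.8 CPM in untreated ones, and rose by 0.66 (SE 0.2, adjusted p = 0.0379).

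The other increases among the 10 largest were ZNF599 (0.85, SE 0.16), ZNF790 (0.63, SE 0.18), ZNF345 (0.59, SE 0.19), ZNF615 (0.5, SE 0.15) and ZNF577, which rose to 1.98, 1.79 and 1.6 CPM in treated AGS libraries, against 1.09, 0.831 and 0.849 CPM in untreated ones. ZNF345 was the 1 riser of 12 without a KRAB motif. It overlaps its neighbour ZNF790 on the opposite strand by 426 bases. ZNF805 and ZNF302 rose by 0.42 each.

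Among the members that fell, ZNF114, with 3 finger motifs, had 1.8, 1.81 and 2.27 CPM in treated AGS libraries, against 5.81, 4.79 and 5.07 CPM in untreated ones (log2 fold change -1.42, SE 0.37, adjusted p = 0.017). ZNF546, a KRAB gene with 22 finger motifs, had 2.23, 2.29 and 2.02 CPM in treated AGS libraries, against 5.39, 4.82 and 4.22 CPM in untreated ones. Its log2 fold change was -1.15 (SE 0.24, adjusted p = 0.00578). In both genes each treated library lay below each untreated one. ZNF576, a short gene with 4 finger motifs and no KRAB motif, had 9.12, 10.1 and 10.9 CPM in treated AGS libraries, against 17.1, 16.8 and 17.4 CPM in untreated ones (log2 fold change -0.77, SE 0.14, adjusted p = 0.00368). ZNF836 (24 finger motifs) had 13.6, 15 and 12.8 CPM in treated AGS libraries, against 22.0, 23.5 and 20.4 CPM in untreated ones, and fell by 0.67 (SE 0.14, adjusted p = 0.00628). ZNF836 lies in the same cluster as ZNF841, ZNF160, ZNF577 and ZNF615, which rose. The remaining decreases were ZNF66 (-0.95), ZNF419 (-0.89), ZNF653 (-0.81), ZNF628 (-0.72), ZNF574 (-0.63), ZNF799 (-0.56) and ZNF444 (-0.49), with 24.1% of the 50-base words of ZNF799 found in another gene.

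The counts in AGS are given by class, with no test of the difference between classes. Of 169 KRAB members, 11 rose and 6 fell, with a median log2 fold change of 0.00. Of 33 members without the motif, 1 rose and 5 fell, with a median of -0.29. With offsets for GC content and length, the KRAB members had 8 higher and 23 lower (median -0.16) and the rest 0 higher and 3 lower (median -0.13), so the balance of the KRAB members turned over and the class medians lay close together. For scale, of the other protein-coding genes of chromosome 19, 36 of 781 rose and 264 fell, with a median of -0.35. ZNF genes on other chromosomes gave 20 higher and 18 lower of 232, with a median of 0.04. Of the 21 members in the highest GC bin (58.9% to 74.1%), 0 rose and 4 fell by this test, with a median of -0.39. The other protein-coding genes of that bin had 121 higher and 688 lower of 2621 and a median of -0.29. At an unadjusted p below 0.05, 11 of the 21 members were lower and 0 higher (52.4% and 0.0%), against 38.5% lower and 7.4% higher of the other genes of the bin.

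**Figure D2:**
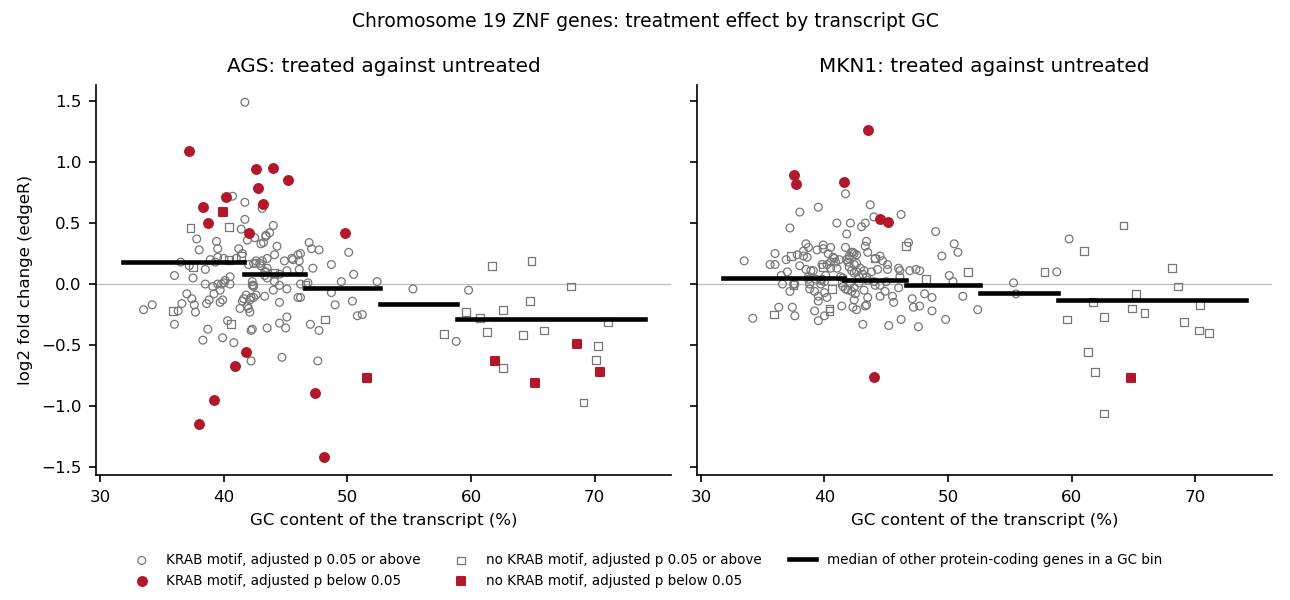
Log2 fold change, treated against untreated (vertical axis), against the GC content of the transcript in percent (horizontal axis) for members of at least 1 CPM in the line, AGS left and MKN1 right. Filled symbols passed an adjusted p of 0.05, circles have a KRAB motif, squares do not, and black bars are medians of other protein-coding genes in each GC bin; in AGS the bars step down from 0.18 to -0.29, while most members of the lowest bin scatter around 0.

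The lowest GC bin (31.8% to 41.6%) holds 77 members, 69 of them with a KRAB motif. There, 5 members rose and 3 fell in AGS, and the median was -0.02. Other protein-coding genes of the same bin had 416 higher and 61 lower of 2565 and a median of 0.18. ZNF genes on other chromosomes in that bin had 13 higher and 1 lower of 69 and a median of 0.22. In the second bin (41.6% to 46.6%) the members had 6 higher and 1 lower of 77 and a median of 0.1, close to the 0.08 of the other protein-coding genes and the 0.11 of the ZNF genes elsewhere. By these medians the members lay below the other genes of their GC class in the lowest bin and level with them in the second. This difference was not tested. The member medians include genes under 1 CPM in AGS, 18 over all bins, 8 of them with at most 3 counts in each AGS library. The median of the lowest bin may therefore rest in part on near-silent genes, and it is not given without them. The plot of log2 fold change against GC content leaves them out. Spearman's rho between GC content and the AGS log2 fold change was -0.12 over the 202 members and -0.34 over all 13209 protein-coding genes, as a description across genes of the same libraries.

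Removing each library's trend over GC content and transcript length through offsets shifted the members down as a group. That trend was fitted on protein-coding genes, most of them not members. The shift therefore largely restates the comparison of GC bins above and is no separate evidence. With the offsets, 8 members were higher and 26 lower in AGS, or 34 of 202 against 21.8% of all genes tested, of which 9.9% were higher and 11.9% lower, and the median was -0.15. Of the 23 members called without offsets, 15 remained called in the same direction. The 8 that were lost were ZNF160, ZNF302, ZNF345, ZNF444, ZNF574, ZNF615, ZNF628 and ZNF653. Of the gained members, ZNF90 and ZNF878 averaged under 1 CPM in AGS, and ZNF90 had at most 3 counts in each AGS library. All 19 that were gained were lower in treated cells. Among them were ZNF91, which represses SVA elements, with a log2 fold change of -0.34 (adjusted p = 0.0242) against -0.08 (adjusted p = 0.725) without offsets, and ZNF93, which represses LINE-1 elements, with -0.5 (adjusted p = 0.00906) against -0.3 (adjusted p = 0.0822). ZNF93 had 19.9, 19.4 and 20.7 CPM in treated AGS libraries, against 25.4, 23.8 and 24.3 CPM in untreated ones, so its groups were apart before any offset. ZNF91 had 16.7, 17.1 and 15.8 CPM in treated AGS libraries, against 17.8, 18.6 and 15.8 CPM in untreated ones, and its groups met.

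In MKN1, cantharidin sodium raised 6 members and lowered 2 of the 202 (edgeR's quasi-likelihood test, Benjamini-Hochberg adjusted p below 0.05). This is 3.96% of the members, against 6.7% of all genes tested, of which 2.8% were higher and 3.9% lower. The members that rose were ZNF69, ZNF480, ZNF382, ZNF569, ZNF814 and ZNF586, all with a KRAB motif, and those that fell were ZNF333 and ZNF784. With library totals in place of TMM factors the split was 6 higher and 1 lower, against 6.4% of all genes tested. The median over the members was 0.07, against 0.01 over all genes tested. Treated libraries lay above all untreated ones for 23 members and below them for 6, or 14.4% of the members against 21.6% of all genes tested (12.7% above, 8.81% below).

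These MKN1 calls rest on few libraries and on the spread shared with AGS. AGS fitted alone gave 73 calls of 187, against 48.2% of all genes. Fitted on the 6 MKN1 libraries alone, edgeR called 0 members and 0.184% of all genes, with 16 of 201 members at an unadjusted p below 0.05. DESeq2 on all libraries called 13, against 12.1% of all genes tested. Without MKN1 untreated library 3, 17 members were called, 8 higher and 9 lower, against 15.1% of all genes tested (7.5% higher, 7.6% lower), and the 8 of the full set were among them with the same sign. Without MKN1 untreated library 1 or 2 the count was 3 or 2, against 3.62% or 1.6% of all genes. Without treated MKN1 library 1, 2 or 3 it was 4, 3 or 9, against 5.59%, 2.99% or 6.24% of all genes. Leaving out treated AGS library 1, 2 or 3 gave 5, 4 and 4, and leaving out untreated AGS library 1, 2 or 3 gave 4, 4 and 5. In these fits 4.0% to 4.49% of all genes were called in MKN1.

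ZNF69 (chromosome 19, 11887784 to 11914329, plus strand) had the largest increase. Its level was 3.43, 2.8 and 1.91 CPM in treated MKN1 libraries, against 0.864, 1.22 and 1.12 CPM in untreated ones (log2 fold change 1.26, SE 0.23, adjusted p = 0.0102). Each treated library was above each untreated one. ZNF480 had 27.2, 30.1 and 23.8 CPM in treated MKN1 libraries, against 15.4, 13.1 and 12.9 CPM in untreated ones (0.89, SE 0.23, adjusted p = 0.0402). In AGS this gene was almost silent, with 6 counts over the treated libraries and 8 over the untreated ones. ZNF382, a KRAB repressor described as a tumour suppressor, had 18.7, 23.7 and 14.3 CPM in treated MKN1 libraries, against 10.9, 7.96 and 11.2 CPM in untreated ones (0.84, SE 0.22, adjusted p = 0.0432). ZNF569 had 7.86, 12.6 and 8.15 CPM in treated MKN1 libraries, against 5.48, 4.15 and 5.67 CPM in untreated ones (0.82, SE 0.19, adjusted p = 0.0246). For both genes the groups did not overlap, but the treated libraries spread widely.

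ZNF814 and ZNF586 rose by 0.53 (SE 0.12, adjusted p = 0.0252) and 0.51 (SE 0.13, adjusted p = 0.0425). ZNF814 had 17.5, 17.1 and 19 CPM in treated MKN1 libraries, against 11.7, 12.8 and 10.6 CPM in untreated ones. It overlaps ZNF587 on the opposite strand over 19.4% of its exon bases, and the library kit does not mark strand. ZNF587 had 58.7, 52.2 and 63.1 CPM in treated MKN1 libraries, against 59.8, 51.3 and 61.2 CPM in untreated ones, with no call. ZNF784, a member without a KRAB motif, had 3.37, 2.45 and 3.11 CPM in treated MKN1 libraries, against 4.95, 5.16 and 4.33 CPM in untreated ones, and fell by 0.77 (SE 0.19, adjusted p = 0.0319).

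**Figure D3:**
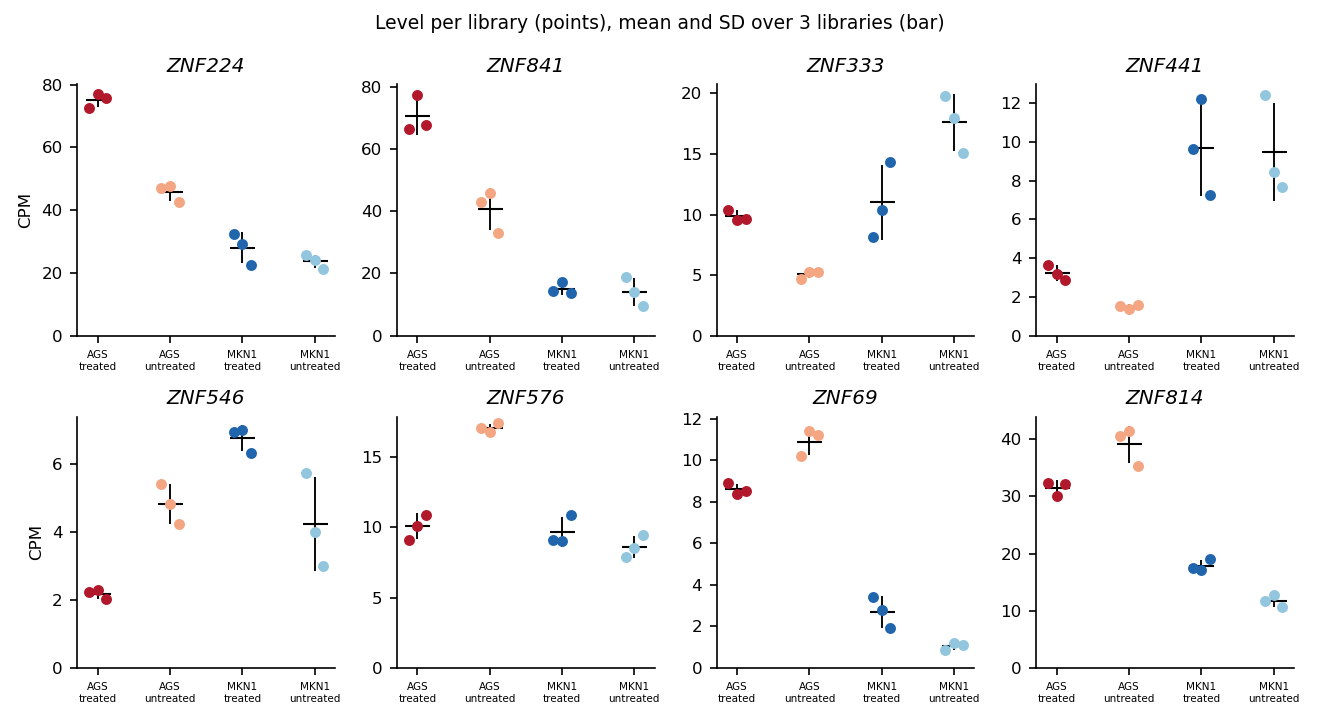
Level in CPM (vertical axes, from 0) of 8 members in each library (points) of the 4 groups, with the mean and SD over 3 libraries in black. ZNF333 is higher in treated than in untreated AGS cells (9.85 against 5.06 CPM) and lower in treated than in untreated MKN1 cells (11.0 against 17.6 CPM).

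ZNF333 was the 1 member called in both lines, and it went opposite ways. This KRAB gene with 10 finger motifs stands alone between clusters (chromosome 19, 14689801 to 14733746, plus strand). It had 10.4, 9.51 and 9.63 CPM in treated AGS libraries, against 4.67, 5.22 and 5.29 CPM in untreated ones, and rose by 0.95 (SE 0.2, adjusted p = 0.00723). In MKN1 it had 8.17, 10.4 and 14.3 CPM in treated libraries, against 19.8, 18 and 15.1 CPM in untreated ones (log2 fold change -0.76, SE 0.2, adjusted p = 0.042). The groups overlapped in neither line, although treated MKN1 library 3 came within 1 CPM of untreated library 3. The difference between the effects, MKN1 minus AGS, was -1.71 (SE 0.29, adjusted p = 0.00231) by edgeR, and it was called under all 21 alternative fits. The change in AGS was called in 21 of 22 alternatives and that in MKN1 in 7 of 22.

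The difference between the treatment effects of the lines was called for 13 members, 9 higher and 4 lower in MKN1 than in AGS, or 6.44% against 15.7% of all genes tested (8.38% higher, 7.3% lower). With the offsets for GC content and length it was called for 28, against 20.1% of all genes tested. Beside ZNF333, the effect was lower in MKN1 for ZNF599 (-1.19, SE 0.22), ZNF441 (-1.15, SE 0.34) and ZNF805 (-0.71, SE 0.19). It was higher in MKN1 for ZNF546 (1.74, SE 0.33), ZNF69 (1.62, SE 0.31), ZNF569 (1.05, SE 0.26), ZNF446, ZNF576, ZNF836, ZNF814, ZNF586 and ZNF93. ZNF546 had 6.93, 6.99 and 6.32 CPM in treated MKN1 libraries, against 5.71, 3.98 and 2.99 CPM in untreated ones, which alone did not pass (0.59, adjusted p = 0.141). ZNF446 passed in neither line alone: its log2 fold change was -0.42 in AGS (adjusted p = 0.104) and 0.48 in MKN1 (adjusted p = 0.121). Other genes overlap 58.5% of its exon bases, and its neighbour ZNF324 on the same strand overlaps 28.8%. Without treated AGS library 1, 8 differences were called, against 10.6% of all genes tested. Without MKN1 untreated library 3, 31 were called, including all 13, against 22.2% of all genes tested.

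**Figure D4:**
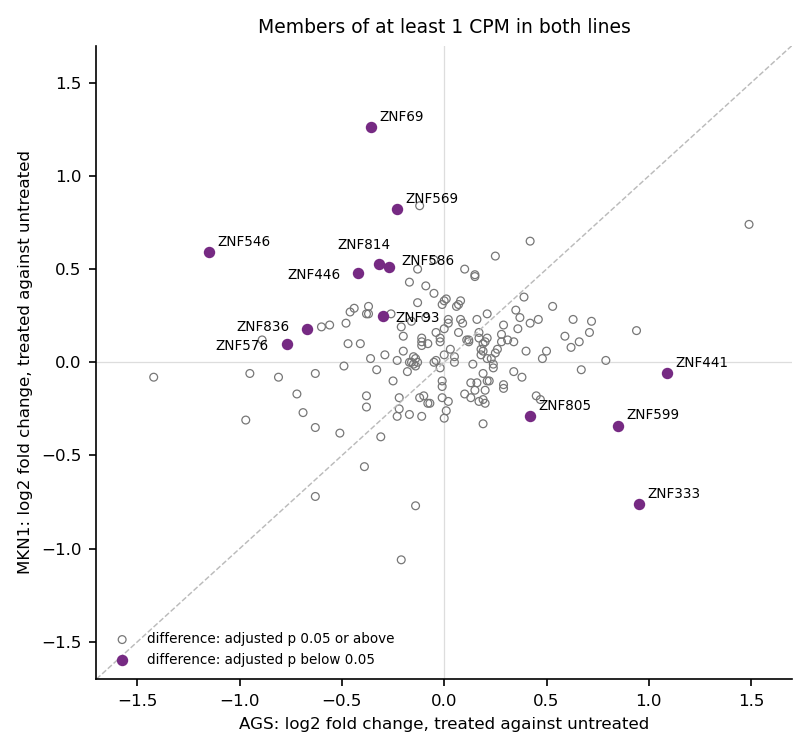
Log2 fold change, treated against untreated, in MKN1 (vertical axis) against AGS (horizontal axis) for the 177 members of at least 1 CPM in both lines. Filled points are the 13 members whose effects differed at an adjusted p below 0.05; they lie away from the dashed line of equal effects, with ZNF333 at 0.95 in AGS and -0.76 in MKN1.

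The promoters of ZNF333, ZNF546 and ZNF69 are shown because their differences were the largest in size among the 13 called. They are RefSeq sequences of GRCh38.p14, from 250 bases before to 50 bases after the gene start in RefSeq, with CG dinucleotides in capitals. Gene positions elsewhere in the text are those of GENCODE, whose starts can differ: the windows of ZNF333, ZNF546, ZNF544 and ZNF43 lie wholly or almost wholly inside the GENCODE gene. The windows of ZNF333 (chr19:14689798-14690097), ZNF546 (chr19:39996810-39997109) and ZNF69 (chr19:11887532-11887831), all on the plus strand, hold 22, 23 and 8 CG dinucleotides.
ZNF333: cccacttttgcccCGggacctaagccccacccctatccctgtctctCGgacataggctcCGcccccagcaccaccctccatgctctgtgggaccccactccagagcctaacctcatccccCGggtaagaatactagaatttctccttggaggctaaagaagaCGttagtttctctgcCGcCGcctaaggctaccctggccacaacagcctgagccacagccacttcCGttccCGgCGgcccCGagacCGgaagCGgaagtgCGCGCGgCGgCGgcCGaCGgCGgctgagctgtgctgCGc
ZNF546: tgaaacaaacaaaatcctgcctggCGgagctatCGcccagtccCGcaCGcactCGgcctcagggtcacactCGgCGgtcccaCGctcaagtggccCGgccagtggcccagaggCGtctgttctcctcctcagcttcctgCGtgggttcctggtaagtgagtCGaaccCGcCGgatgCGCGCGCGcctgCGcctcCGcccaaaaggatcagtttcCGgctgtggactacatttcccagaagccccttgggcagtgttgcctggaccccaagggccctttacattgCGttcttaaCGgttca
ZNF69: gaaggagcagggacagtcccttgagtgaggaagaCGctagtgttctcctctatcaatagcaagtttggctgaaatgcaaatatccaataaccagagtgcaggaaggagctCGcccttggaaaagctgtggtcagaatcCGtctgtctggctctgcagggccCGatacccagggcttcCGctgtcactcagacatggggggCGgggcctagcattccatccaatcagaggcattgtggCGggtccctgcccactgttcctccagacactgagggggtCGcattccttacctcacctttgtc

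Such a window was found for 181 of the 202 members. They held a median of 20 CG dinucleotides, against 24 over 13300 protein-coding promoters, with 19 in KRAB members and 24 in the rest. Motifs were searched on both strands as exact letters, none of which contains another. The CCAAT box (CCAAT) occurred in 53.0% of member promoters, against 36.5% of all 13300, and in 58.7% of KRAB members but 25.8% of the rest. The ETS motif CCGGAAGT occurred in 21.0% of member promoters, against 7.14% of all. The TATA box (TATAAA) occurred in 2.21%, against 7.87%, and the E-box (CACGTG) in 4.97%, against 9.24%. The SP1 box GGGCGG was at 66.9% and 63.6%, the cAMP response element TGACGTCA at 3.87% and 2.87%, and the AP-1 motif TGANTCA at 6.08% and 5.31%. These are matches of letters and describe sequence only.

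The untreated lines were compared next. In untreated MKN1 cells 51 members were higher and 92 lower than in untreated AGS cells, or 70.8% of the members against 66.3% of all genes tested, of which 34.9% were higher and 31.4% lower. These counts include members that reached the limit of 1 CPM through 1 line only, 18 of them under 1 CPM in AGS and 7 in MKN1, whose difference follows from that limit. Over the 177 members of at least 1 CPM in both lines, 33 were higher and 85 lower, or 66.7%, level with all genes tested in the share called. Their median log2 difference was -0.37, against 0.04 over all genes tested. At the low end in AGS, 8 members had at most 3 counts in each of the 6 AGS libraries, namely ZNF14, ZNF43, ZNF470, ZNF626, ZNF71, ZNF726, ZNF880 and ZNF90.

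ZNF43 had 2 counts over the 3 untreated AGS libraries and 0 over the treated ones. In MKN1 it had 15.5, 13.6 and 13.2 CPM in treated libraries, against 11.9, 8.58 and 13.3 CPM in untreated ones. ZNF470 and ZNF71, neighbours in the cluster nearest the long-arm end, had 3 and 2 counts over the untreated AGS libraries, against 954 and 931 counts over the untreated MKN1 libraries. ZNF559 had 17.8, 17.6 and 15.9 CPM in untreated MKN1 libraries, against 0.00, 0.086 and 0.0749 CPM in untreated AGS libraries. No fold is given for genes so close to 0 counts.

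In the other direction, ZNF544 had 0.498, 0.977 and 1.28 CPM in untreated MKN1 libraries, against 117, 110 and 104 CPM in untreated AGS libraries, a log2 difference of -6.89 (SE 0.21, adjusted p = 3.14e-11). In treated cells it had 0.624, 0.594 and 0.627 CPM in MKN1 libraries, against 92.8, 85.7 and 86.8 CPM in AGS libraries. ZNF585B had 1.86, 1.43 and 1.53 CPM in untreated MKN1 libraries, against 56.4, 57.2 and 49.4 CPM in untreated AGS libraries (-5.07, SE 0.18), and 27.6% of its 50-base words occur in another gene. ZNF772 (-4.66, SE 0.2), ZNF426 (-4.2, SE 0.45) and ZNF331 (-4.19, SE 0.49) followed. None of these 5 genes passed the test for treatment in AGS or in MKN1.

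The promoters of ZNF544, nearly silent in MKN1, and ZNF43, nearly silent in AGS, are given to show the windows of genes that the lines use so differently (RefSeq, GRCh38.p14, CG dinucleotides in capitals). That of ZNF544 (chr19:58228664-58228963, plus strand) holds 31 CG dinucleotides and that of ZNF43 (chr19:21836133-21836432, minus strand) 12.
ZNF544: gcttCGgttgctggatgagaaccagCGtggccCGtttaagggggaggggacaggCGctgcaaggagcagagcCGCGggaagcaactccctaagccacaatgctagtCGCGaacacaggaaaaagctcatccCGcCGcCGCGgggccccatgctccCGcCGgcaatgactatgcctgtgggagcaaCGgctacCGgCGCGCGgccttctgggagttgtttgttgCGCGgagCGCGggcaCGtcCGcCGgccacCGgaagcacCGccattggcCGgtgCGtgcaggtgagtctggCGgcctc
ZNF43: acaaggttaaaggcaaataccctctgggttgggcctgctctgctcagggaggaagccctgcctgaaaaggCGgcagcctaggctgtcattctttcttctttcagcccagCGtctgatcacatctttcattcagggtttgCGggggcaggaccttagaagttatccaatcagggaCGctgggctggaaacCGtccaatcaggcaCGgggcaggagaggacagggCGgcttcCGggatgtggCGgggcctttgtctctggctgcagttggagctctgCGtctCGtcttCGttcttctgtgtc

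The balance of the line differences varied along the chromosome, which was described and not tested. Of all genes tested, 34.9% were higher and 31.4% lower in untreated MKN1 cells. Members, those near silent in 1 line included, were split into 15 clusters wherever neighbours lay more than 1 Mb apart. In the cluster from ZNF575 to ZNF296 (43525497 to 45076588, 22 members), 0 members were higher and 16 lower in untreated MKN1 than in untreated AGS, with a median log2 difference of -0.94. In the cluster from ZNF175 to ZNF331 (51571298 to 53580269, 28 members, all with a KRAB motif), 6 were higher and 20 lower, with a median of -1.21. In that from ZNF628 to ZNF446 (55476332 to 58481230, 48 members), 5 were higher and 28 lower, with a median of -0.69. From ZNF554 to ZNF77, the cluster nearest the short-arm end, 0 were higher and 5 lower of 5 (median -0.66). Other clusters had more members higher, with 7 higher and 1 lower of 13 from ZNF557 to ZNF846 (median 0.52) and 4 higher and 0 lower of 5 from ZNF302 to ZNF792 (median 0.68). A change of copy number of these stretches in either line was not tested.

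**Figure D5:**
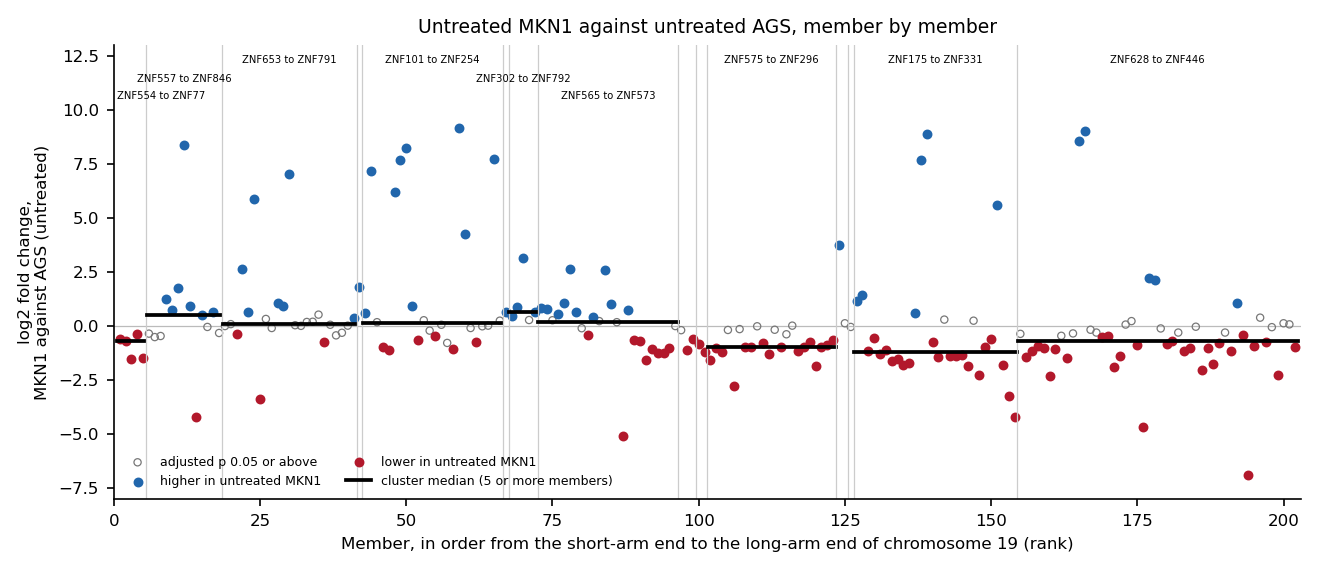
Log2 difference of untreated MKN1 against untreated AGS (vertical axis) for the 202 members in their order along chromosome 19 (horizontal axis, rank). Grey lines part the clusters and black bars give cluster medians; most members from ZNF575 onwards lie below 0, the lowest being ZNF544 at -6.89, and the highest points are genes with next to no counts in AGS, whose fitted values are no measured folds.

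The treatment effect was also described by cluster. The cluster from ZNF175 to ZNF331 had 4 members higher and 1 lower in AGS (median 0.12) and 1 higher and 0 lower in MKN1 (median 0.1). The cluster from ZNF101 to ZNF254, with 24 members and the lowest median GC content of the larger clusters (37.6%), had 0 higher and 1 lower in AGS (median -0.17). There 7 members averaged under 0.5 CPM in treated AGS cells, so its median rests in part on near-silent genes. The cluster from ZNF628 to ZNF446, with 48 members, had 1 higher and 3 lower in AGS and 2 higher and 1 lower in MKN1. Of all genes tested, 9.21% were higher and 11.6% lower in AGS, and 2.8% and 3.9% in MKN1. Cluster counts this small were not tested against those shares. By finger number, the 12 members with 1 to 5 motifs had 0 higher and 4 lower in AGS and a median of -0.45, against 9.21% higher and 11.6% lower of all genes tested. The 56 with 6 to 10 motifs had 3 higher and 0 lower (median -0.03), and the 87 with 11 to 15 had 5 higher and 3 lower (median 0.00). The 37 with 16 to 20 motifs had 4 higher and 2 lower (median 0.02), and the 10 with more had 0 higher and 2 lower (median -0.04).

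Several other members of known function did not pass the test in either line. ZNF274, which binds the 3-prime ends of zinc finger genes and recruits SETDB1 there, averaged 27.7 ± 1.29 CPM in treated AGS cells, against 33.1 ± 2.23 CPM in untreated ones (log2 fold change -0.26, adjusted p = 0.185). In MKN1 it averaged 31.6 ± 5.81 CPM in treated cells, against 25.1 ± 2.93 CPM in untreated ones (0.26, adjusted p = 0.272). ZNF675, an inhibitor of TRAF6 signalling, had log2 fold changes of -0.22 in AGS and -0.19 in MKN1, with adjusted p-values of 0.463 and 0.613 by edgeR. ZNF580, ZNF581 and ZNF787, short members without a KRAB motif, had 0.15, -0.23 and -0.51 in AGS and -0.15, -0.29 and -0.38 in MKN1, none of which passed.

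The partners through which KRAB proteins act were measured with 27 genes of the TRIM28 and H3K9 methylation machinery, all above 1 CPM in both lines. In AGS 2 rose and 4 fell, or 22.2% against 20.8% of all genes tested, with a median log2 fold change of -0.17. In MKN1 0 rose and 2 fell, or 7.41% against 6.7%, with a median of -0.08. Both shares are near those of all genes, so the genes below are given one by one and not as a result about the list. TRIM28, itself a gene of chromosome 19, had 311, 272 and 317 CPM in treated AGS libraries, against 512, 494 and 615 CPM in untreated ones (-0.86, SE 0.16, adjusted p = 0.00404). In MKN1 it had 169, 151 and 207 CPM in treated libraries, against 220, 263 and 189 CPM in untreated ones, with overlapping groups (-0.42, SE 0.16, adjusted p = 0.138). Without MKN1 untreated library 3 that value was -0.55 (adjusted p = 0.0349).

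The other genes of this list that fell in AGS were SUV39H1, an H3K9 methyltransferase (-0.72, SE 0.18), DAXX, a histone H3.3 chaperone (-0.62, SE 0.11), and UHRF1, which guides DNMT1 to DNA (-0.5, SE 0.11). MORC2, a partner of the HUSH silencing complex (0.36, SE 0.1), and TRIM33, a relative of TRIM28 (0.38, SE 0.12), rose. In MKN1, CBX5, which encodes HP1 alpha, had 96.1, 70.5 and 69.8 CPM in treated libraries, against 110, 108 and 98.7 CPM in untreated ones (-0.5, SE 0.13, adjusted p = 0.0382). The DNA methyltransferase DNMT1 fell by 0.53 (SE 0.13, adjusted p = 0.0363). SETDB1 passed in neither line, with 0.26 (adjusted p = 0.114) in AGS and -0.19 (adjusted p = 0.324) in MKN1. In AGS the list gave 3 calls without untreated AGS library 3, treated AGS library 1 or treated AGS library 2, where 9.85%, 11.9% and 10.4% of all genes were called. In MKN1 it gave 7 calls without MKN1 untreated library 3, against 15.1% of all genes. It gave 0 without any single AGS library (4.0% to 4.49% of all genes), without MKN1 untreated library 1 or 2 (3.62% and 1.6%) or without treated MKN1 library 2 (2.99%), where 3 to 8 genes had an unadjusted p below 0.05 and DESeq2 on all libraries called 4.

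Members lie close together and resemble each other, which limits how their counts can be read. At least 20% of the exon bases overlapped another gene in 23 members, and at least 20% of the 50-base words occurred in another gene in 31. ZNF320 and ZNF468, a pair chosen after their values were seen, share a strand and 72.5% of the exon bases of ZNF320. ZNF320 had 97.8, 41.0 and 6.33 CPM in treated AGS libraries, against 4.77, 6.56 and 39.5 CPM in untreated ones. ZNF468 had 65.5, 132 and 157 CPM in treated AGS libraries, against 144, 142 and 89.2 CPM in untreated ones. Where one was high the other was low, and their sum was steady at 163, 173 and 164 CPM in treated AGS libraries, against 148, 149 and 129 CPM in untreated ones. In MKN1 the sum was 61.3, 75.2 and 63.9 CPM in treated libraries, against 63.9, 52 and 47.3 CPM in untreated ones. Neither gene was called in either line.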

How the data were processed

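The authors deposited 1 table of raw read counts per gene for the 12 libraries, with 32269 Ensembl gene IDs. Reads were aligned with HISAT2 2.0.4 to hg38, per the submitters' processing notes, from unstranded libraries, per the kit named in the labels' protocols. No label or header names the counting tool, its strand setting or its annotation. Symbols were found for 32069 IDs and positions for 32136.

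The members and gene lists were chosen with earlier results of these data known. Counts were tested with edgeR 4.0.16 (R 4.3.3) by the quasi-likelihood test on all 12 libraries (TMM scaling, filterByExpr, 20280 genes, 8 residual degrees of freedom), with Benjamini-Hochberg adjustment over all genes tested and a threshold of 0.05. CPM values divide by the library total. Alternatives used DESeq2 1.42.0, limma 3.58.1 with voom, other scalings and filters, offsets for GC content and transcript length, each line alone and each library left out. The test was checked on simulated counts. KRAB and finger motifs were searched in translated GENCODE coding sequences, in place of the protein table that had been planned. The limit of 3 counts covers counting error only. Named members were the 10 with the largest change in each direction among those called per line, the 6 largest per direction for the other comparisons, the most abundant and a fixed list; further members are named to complete a count or because their exons overlap, after their values were seen. Replicate numbers were not used as a block in the main fit, because same-numbered libraries correlated weakly, though this cannot exclude a pairing.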

Additional observations from a re-analysis of the deposited data

Results flagged for a closer look

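The treatment effect differed between the lines in 13 members by edgeR's interaction term (Benjamini-Hochberg adjusted p below 0.05), given here as MKN1 effect minus AGS effect on the log2 scale. It was lower in MKN1 for ZNF333 (-1.71), ZNF599 (-1.19), ZNF441 (-1.15) and ZNF805 (-0.71). It was higher in MKN1 for ZNF546 (1.74), ZNF69 (1.62), ZNF569 (1.05), ZNF446 (0.9), ZNF576 (0.87), ZNF836 (0.86), ZNF814 (0.86), ZNF586 (0.77) and ZNF93 (0.56).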

How the results depend on the processing

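Of the members called in AGS (23), DESeq2's test gave 38, against 24.9% of all genes, and AGS fitted alone 73 of 187, against 48.2% of all genes. In MKN1 (8), DESeq2's test gave 13, no filter 4, the replicate block 2, the offsets for GC content and length with the replicate block 3, and MKN1 fitted alone 0. Of all genes tested, these fits called 12.1%, 2.51%, 5.95%, 7.28% and 0.184% in the same order. For the difference between the effects (13), DESeq2's test gave 22, the offsets 28 and the offsets with the replicate block 23. For this difference the same fits called 17.6% to 20.1% of all genes tested, against 15.7% in the main fit. The calls therefore did not rise in the members alone. The median of the members in AGS (-0.01) was -0.15 with the offsets, with or without the replicate block. Of the 27 corepressor genes, AGS alone gave 19 calls in place of 6, against 48.2% of all genes. In MKN1, in place of 2, library totals gave 0, no filter 0, DESeq2's test 4, the replicate block 1 and MKN1 alone 0, where edgeR at an unadjusted p below 0.05 gave 6, 6 and 4 for the 3 counts of 0 in that order. The cause of these shifts was not tested.

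Leaving out 1 library gave 8 to 42 members called in AGS, 2 to 17 in MKN1, 8 to 31 for the difference and 129 to 148 between untreated lines. For the corepressor genes it gave 3 to 8 calls in AGS and 0 to 7 in MKN1. In these fits 9.85% to 26.4% of all genes tested were called in AGS and 1.6% to 15.1% in MKN1. For the difference the shares were 10.1% to 22.2%, and between untreated lines 59.7% to 66.8%. The medians of the members ran from -0.04 to 0.01 in AGS and from 0.02 to 0.14 in MKN1. 

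As deviations from their group means, same-numbered libraries correlated at -0.0441 to 0.0203 in AGS and -0.0396 to 0.176 in MKN1. In each line 1 of 3 treated libraries correlated best with its own number. In MKN1 the lowest GC bin minus the highest was 0.23 and 0.22 (log2 CPM) in treated and untreated library 1. It was -0.27 and -0.34 in library 3, but 0.3 and -0.17 in library 2. With 3 libraries a group, these values cannot show whether the numbers pair the libraries. The replicate block gave 18 calls in AGS, 2 in MKN1, 15 for the difference and 124 between lines. It called 20.2%, 5.95%, 16.0% and 53.8% of all genes tested in that order. For single named genes, 1418 of 1644 values kept direction and side of the threshold, 183 lost the call, 25 gained it and 18 moved, with no called value changing sign.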

Other observations

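Some members varied widely within a group. At a mean of at least 5 CPM, the highest library exceeded the lowest by more than 4-fold for 3 of 150 members in treated AGS cells, 1 of 156 in untreated AGS cells, 0 of 162 in treated MKN1 cells and 0 of 156 in untreated MKN1 cells. Among all protein-coding genes the shares were 0.26%, 0.232%, 0.572% and 0.716% in the same order of groups. Besides ZNF320, which shares its exons with ZNF468, these were ZNF358 with 15.4, 12.1 and 0.0 CPM and ZNF429 with 1.59, 8.05 and 7.25 CPM in treated AGS libraries. Other genes overlap 34.4% of the exon bases of ZNF358, and 1 protein-coding gene on the same strand overlaps 20.2%. That gene had 0.0, 0.0 and 6.22 CPM in the same treated AGS libraries, so it had counts only where ZNF358 had none. Whether reads were assigned from one gene to the other was not tested.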
